A study of Rattus norvegicus with 10 samples.

Results

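This report describes 6 genes of fatty acid desaturation and elongation in rat liver: Scd, Fads1, Fads2, Elovl5, Elovl2 and Elovl1. Members were all probe sets, groups of short oligonucleotides on the array that together measure 1 transcript, to which the platform annotation gives one of these symbols alone. There were 7 of them among 31042 probe sets that are not controls, or 6 genes among 14217 named ones: 1370355_at for Scd, 1367857_at for Fads1, 1368453_at for Fads2, 1388348_at and 1387630_at for Elovl5, 1391534_at for Elovl2 and 1398360_at for Elovl1. The rule used no measured value. All 7 passed the filter on dim probe sets, which kept 18625, and their mean signals lay between the 88.5th and the 99.4th percentile of the whole array.

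The samples were livers of male Wistar rats, an outbred laboratory strain with no engineered allele. The rats had eaten standard chow, or 1 of 4 high-fat diets with 42% of the energy as fat, for 12 weeks: lard (a mix of saturated and monounsaturated fat), olive oil (mostly monounsaturated), coconut fat (mostly saturated, of medium chain length) or fish oil, which the design text calls cod liver oil and which is rich in long-chain polyunsaturated fatty acids of the n-3 series. All rats, the chow group included, were fasted overnight, a state in which hepatic fatty acid synthesis is normally low. Total RNA of a frozen piece of liver was hybridised to Affymetrix Rat 230 2.0 arrays, 10 in all, with 2 arrays for each of the 5 diets. The labels give neither the age of the rats nor the fat content of the chow, so the amount of fat and its type cannot be told apart in a comparison with chow. They also do not say whether an array holds the RNA of 1 animal, so p-values reflect only how far these arrays differ, which may be technical. The array has a single colour, and its deposited values are MAS5 signals on a linear scale, a brightness per probe set in which levels can be compared between arrays but not between probe sets.

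Mammalian cells make unsaturated fatty acids by placing double bonds with desaturases and by lengthening chains with elongases, all in the endoplasmic reticulum. Stearoyl-CoA desaturase, encoded by Scd, turns saturated into monounsaturated fatty acids, mainly palmitate into palmitoleate and stearate into oleate. Fads2 (delta-6 desaturase) and Fads1 (delta-5 desaturase) act in turn on linoleic and alpha-linolenic acid, with an elongation by Elovl5 between them, and lead to arachidonic and eicosapentaenoic acid. Elovl2 carries the chains further towards docosahexaenoic acid, and Elovl1 lengthens saturated and monounsaturated very long chains, largely for sphingolipids. In liver, Scd, Fads1, Fads2 and Elovl5 are known targets of the transcription factor SREBP-1, whose activity rises with insulin and falls with dietary polyunsaturated fatty acids.

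One array stood apart for the member genes. Median signals were 28.7 to 31.9 on 9 arrays and 36.8 on the second lard array, and the signal ratio of the 3' to the 5' probe set was 0.959 to 1.19 for the GAPDH control. For actin this ratio was 2.5 and 2.75 on the olive oil arrays and 2.6 on the first fish oil array, against 2.1 to 2.37 on the other 7. These are the arrays with the highest and one of the lowest Scd signals, and the part of RNA integrity in the values was not tested. Over the 18625 tested probe sets, the log2 values of the 2 chow arrays correlated with each other at r = 0.95, the highest value among the 5 diets. Yet the first chow array had the lowest signal of all 10 arrays for Scd, Fads1, Fads2 and both Elovl5 probe sets. The signals of Scd on the 2 chow arrays were 547.5 and 5610.4, a 10.2-fold gap, and 0.0483% of the 18625 tested probe sets differed as much between these arrays. Every comparison with chow below rests on this pair, and values without the first array are given beside those that depend on it.

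No member probe set passed the threshold in any comparison (limma, Benjamini-Hochberg adjusted p under 0.05 over all probe sets tested). Against chow, 0 of 7 were called with fish oil (0.156% of all tested probe sets), lard (0.0161%), olive oil (0.0268%) and coconut fat (0% of all), and 0 for the mean of the 4 high-fat diets (0.0376%). Among the high-fat diets, 0 of 7 were called for fish oil against the mean of the other 3 (0.424%), for coconut fat against the mean of lard and olive oil (0%), for coconut fat against olive oil (0.0107%) and for olive oil against lard (0%). The F-test for any difference among the 5 diets also called 0 of 7 (0.14%). That no member passed does not show that the diets left these genes alike. Fish oil against chow was simulated over 18625 probe sets with the moderated SD that the fit gave each of them. This can be smaller than the measured SD: for Scd the moderated SD was 0.816 and the residual SD 1.197. The fit recovered 29 of 100 true log2 differences of 1 and 73 of 100 of 2. The changed probe sets were drawn from the whole array, so these shares are not those of the members. Scd, with an SE of 0.82, did not pass at a log2 fold change of 1.99 with olive oil against chow (limma adjusted p = 0.556).

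At an unadjusted p under 0.05, 1 member differed from chow with fish oil (7.63% of all tested probe sets), 1 with lard (7.99%), 2 with olive oil (8.38%), 1 with coconut fat (5.43%) and 2 for the mean of the high-fat diets (6.66%). Fads2 was among them each time, Scd was the other one with olive oil and for the mean, and all had higher signals than chow. Without the first chow array, the unadjusted p of Fads2 against chow was 0.0367 with olive oil, 0.169 with lard, 0.171 with fish oil and 0.525 with coconut fat, and that of Scd with olive oil was 0.537 (limma). The F-test counted 1 member at this level (9.4%), again Fads2. No member reached it for fish oil against the other 3 diets (11.8%), for coconut fat against lard and olive oil (6.71%), for coconut fat against olive oil (6.54%) or for olive oil against lard (6.23%).

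**Figure D1:**
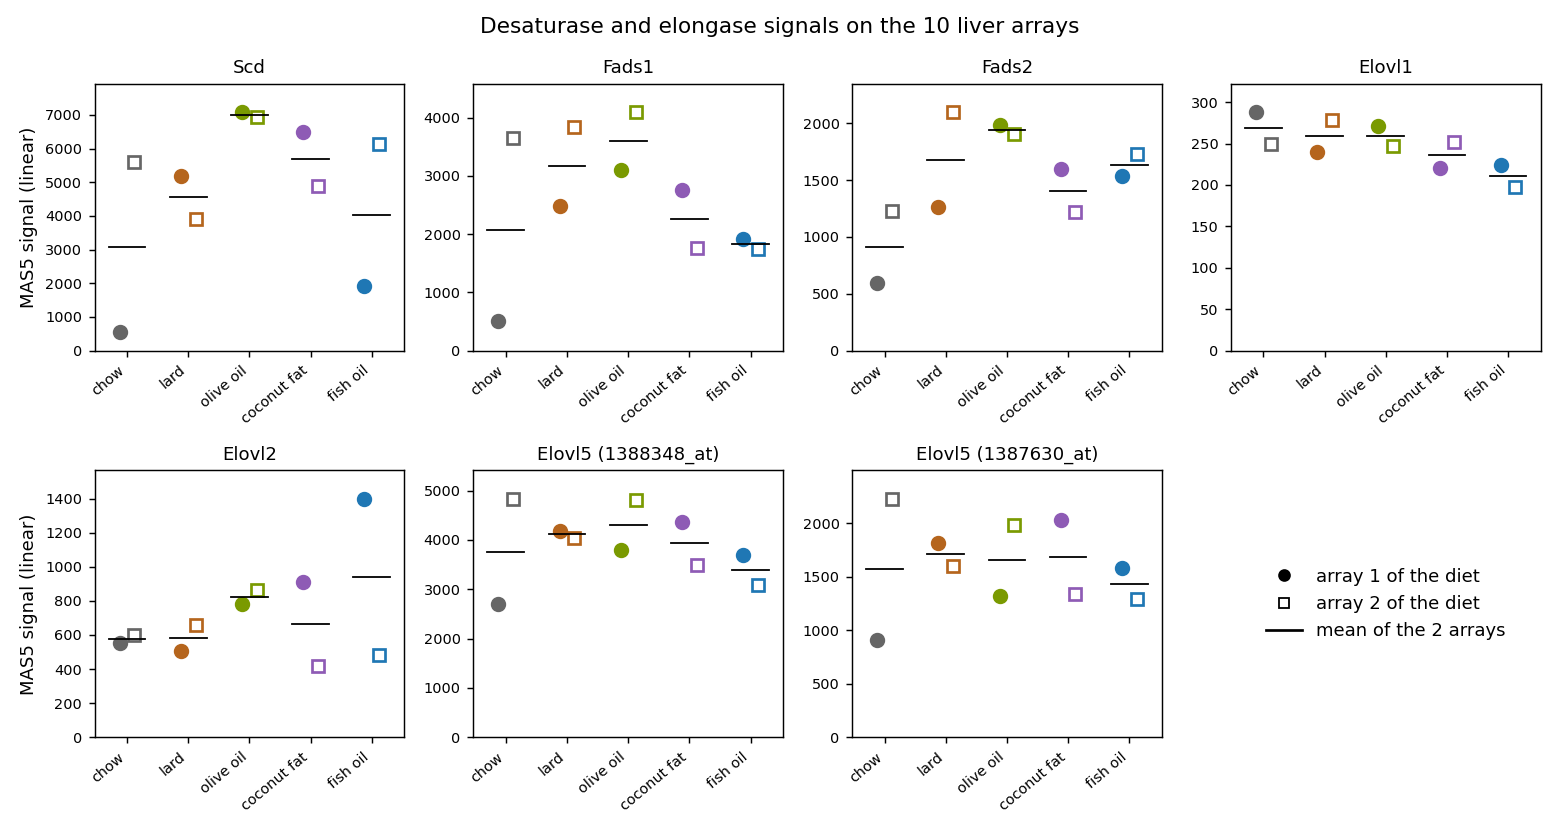
MAS5 signal of each member probe set on every array, by diet, with 1 point per array and a bar at the mean of the 2 arrays; each panel has its own linear signal axis. The first chow array is at 547.5 for Scd, 499.8 for Fads1 and 593.2 for Fads2, below the other 9 arrays in each of these panels, while the 2 fish oil arrays are far apart for Scd (1924.3 and 6125.5) and close for Fads1 (1915.2 and 1746.2).

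Scd, the desaturase that makes monounsaturated fatty acids, was highest with olive oil, at 7077.8 and 6927.8. It read 5183.8 and 3915.2 with lard, 6487.2 and 4893.2 with coconut fat, 1924.3 and 6125.5 with fish oil and, as given above, 547.5 and 5610.4 with chow. Both olive oil arrays lay above all other arrays, whereas chow and fish oil each had 1 array among the other diets and 1 far below them. The diet means ranked, from low to high, chow (3079 ± 3580, SD, n = 2), fish oil (4025 ± 2971), lard (4550 ± 897), coconut fat (5690 ± 1127) and olive oil (7003 ± 106.1), and of the neighbours in this order only coconut fat and olive oil did not overlap.

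Against chow, the log2 fold change of Scd was 1.99 with olive oil (SE 0.82, 95% interval 0.2 to 3.79, limma adjusted p = 0.556). It was 1.68 with coconut fat (interval -0.12 to 3.48, limma adjusted p = 0.945), 1.36 with lard (interval -0.44 to 3.16, adjusted p = 0.723) and 0.97 with fish oil (interval -0.83 to 2.76, adjusted p = 0.882). Without the first chow array these values were 0.32, 0.01, -0.32 and -0.71, so the sign with lard and with fish oil turned on that array. Without the second chow array they were 3.67, 3.36, 3.03 and 2.64, and the value with olive oil then passed the threshold (limma adjusted p = 0.0397). Fish oil against the 3 other high-fat diets averaged gave -0.71 (interval -2.18 to 0.76, limma adjusted p = 0.746), and 0.12 without the first fish oil array.

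Fads1, the delta-5 desaturase, had its highest mean with olive oil, at 3101.9 and 4091.3, and its lowest with fish oil, at 1915.2 and 1746.2. Lard gave 2482.1 and 3840.9, coconut fat 2754.8 and 1754.3, and chow 499.8 and 3648.5. The fish oil arrays were within 1.1-fold of each other and below all lard and olive oil arrays, but the second coconut fat array lay between them and the first chow array below them. The order of the means was fish oil (1831 ± 119.5), chow (2074 ± 2226), coconut fat (2255 ± 707.5), lard (3162 ± 960.8) and olive oil (3597 ± 699.6), with overlap between all neighbours.

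Set against lard, olive oil and coconut fat averaged, the log2 fold change of Fads1 with fish oil was -0.66 (SE 0.54, 95% interval -1.84 to 0.52, limma adjusted p = 0.698). Against chow it was 1.4 with olive oil (interval -0.05 to 2.84), 1.19 with lard (-0.26 to 2.64), 0.7 with coconut fat and 0.43 with fish oil (-1.01 to 1.88). The last of these is positive although the mean signal with fish oil was the lower one, because the model averages logarithms and the first chow array was so low. Without that array, the 4 values were -0.03, -0.24, -0.73 and -1, and 0 passed the threshold (limma adjusted p = 0.394 for fish oil). Without the second chow array, the values were 2.83, 2.62, 2.13 and 1.86, and olive oil passed (limma adjusted p = 0.012).

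Fads2, the delta-6 desaturase that opens the polyunsaturated pathway, was the member with the smallest p against chow in each of the 4 diets. Its signals were 593.2 and 1229.9 with chow, 1264 and 2097.1 with lard, 1980.4 and 1901.1 with olive oil, 1595.3 and 1217.3 with coconut fat and 1532 and 1725.6 with fish oil. All arrays of lard, olive oil and fish oil were above both chow arrays, and the second coconut fat array was just below the second chow array. The diet means were 911.6 ± 450.2 for chow, 1406 ± 267.3 for coconut fat, 1629 ± 136.9 for fish oil, 1681 ± 589.1 for lard and 1941 ± 56.07 for olive oil, each neighbour overlapping the next.

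The log2 fold change of Fads2 for the mean of the 4 high-fat diets against chow was 0.93 (SE 0.24, 95% interval 0.4 to 1.47, unadjusted p = 0.00289, limma adjusted p = 0.363), and 0.41 without the first chow array. By diet it was 1.18 with olive oil (0.5 to 1.86, limma adjusted p = 0.312), 0.93 with lard (0.25 to 1.61) and with fish oil (0.24 to 1.61), and 0.7 with coconut fat (0.02 to 1.39). Its direction held when any array was left out: between 0.66 and 1.7 for olive oil, 0.4 and 1.45 for lard and for fish oil, and 0.18 and 1.23 for coconut fat. The lower end of each range was reached without the first chow array. In contrast to the point estimate for Fads1, Fads2 with fish oil was level with the other high-fat diets, at a log2 fold change of -0.01 (interval -0.57 to 0.55, limma adjusted p = 0.992). The difference between the responses of the 2 genes was not tested.

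**Figure D2:**
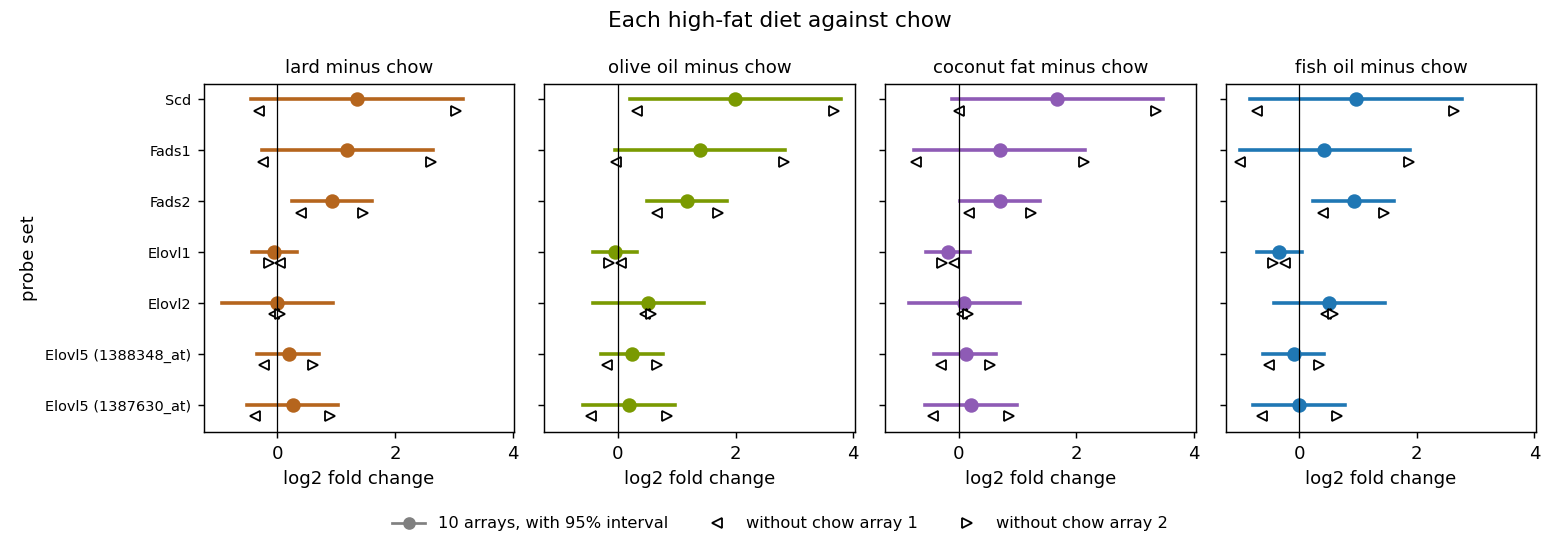
Log2 fold change of each member probe set against chow for the 4 high-fat diets, as a point with its 95% confidence interval from limma, and a line at 0. Open triangles pointing left give the value without the first chow array, and those pointing right the value without the second. The intervals of Fads2 lie above 0 with all 4 diets and that of Scd with olive oil (0.2 to 3.79), the other intervals include 0, and those of Scd and Fads1 are several times wider than those of Elovl1. Without the first chow array, Scd with olive oil is at 0.32 and Fads2 with coconut fat at 0.18.

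Elovl5, which elongates the product of Fads2, is measured by 2 probe sets of different brightness, which were alike in part but differed in the order of the diet means. With 1388348_at the signals were 2699.7 and 4831.7 for chow, 4192.4 and 4030.7 for lard, 3791.4 and 4815 for olive oil, 4370.7 and 3502.4 for coconut fat, and 3702.7 and 3095.7 for fish oil. With 1387630_at they were 910.4 and 2224.3 for chow, 1814.5 and 1600.1 for lard, 1322.8 and 1983.1 for olive oil, 2032.1 and 1338.1 for coconut fat, and 1577.8 and 1289.5 for fish oil. On both, the chow arrays were the lowest and the highest of all 10, fish oil had the lowest mean, and neighbours in the order of means overlapped. The means of 1388348_at ran from 3399 ± 429.2 with fish oil to 4303 ± 723.8 with olive oil, a 1.27-fold range, and those of 1387630_at from 1434 ± 203.9 to 1707 ± 151.6 with lard, a 1.19-fold range. Fish oil against the other 3 high-fat diets gave log2 fold changes of -0.27 (interval -0.71 to 0.16, limma adjusted p = 0.641) and -0.22.

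Elovl2, the elongase of the longest polyunsaturated chains, differed from the desaturases in which arrays were high. Its signals were 555.1 and 597.5 with chow, 506.3 and 655.9 with lard, 783.6 and 866.1 with olive oil, 908.7 and 420.6 with coconut fat and 1397.5 and 484.8 with fish oil. The highest value of all was on the first fish oil array, where Scd was low, and the chow arrays were close to each other. The mean with fish oil was 941.1 ± 645.4, against 576.3 ± 29.98 with chow, 581.1 ± 105.8 with lard, 664.7 ± 345.1 with coconut fat and 824.9 ± 58.34 with olive oil. Both olive oil arrays were above the chow and lard arrays, at a log2 fold change of 0.51 against chow (SE 0.43, limma adjusted p = 0.798). Fish oil against chow also gave 0.51 (interval -0.43 to 1.46, adjusted p = 0.882), and this became -0.25 when the first fish oil array was dropped and 1.27 when the second was.

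Elovl1, the elongase of saturated very long chains, had the narrowest range over the 10 arrays, 197.6 to 287.9. It read 287.9 and 249.5 with chow, 239.4 and 279 with lard, 271.5 and 246.9 with olive oil, 220.7 and 252.5 with coconut fat and 224.6 and 197.6 with fish oil. Both fish oil arrays were below both chow arrays, though the first coconut fat array lay between them. The means were 211.1 ± 19.09 with fish oil, 236.6 ± 22.49 with coconut fat, 259.2 ± 28 with lard, 259.2 ± 17.39 with olive oil and 268.7 ± 27.15 with chow. Against chow the log2 fold change with fish oil was -0.34 (SE 0.17, interval -0.72 to 0.04, limma adjusted p = 0.707), and against the other high-fat diets it was -0.25 (interval -0.56 to 0.06, adjusted p = 0.536).

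Counted by direction, 6 of the 7 member probe sets had a fold change above 0 against chow with lard, olive oil and coconut fat, and 5 with fish oil. The median log2 fold change of the members was 0.26 with lard, 0.51 with olive oil, 0.21 with coconut fat and 0.43 with fish oil, and the medians over all tested probe sets were 0.04, 0.02, -0.02 and -0.01. Of all tested probe sets, 55.3%, 51.7%, 47.9% and 48.5% were above 0. Without the first chow array, 2 members were above 0 with lard (median -0.23), 4 with olive oil (0.05), 3 with coconut fat (-0.08) and 2 with fish oil (-0.51), so these counts rested on that array. Set against lard, olive oil and coconut fat averaged, 6 of 7 were below 0 with fish oil, with a median of -0.25 (all probe sets -0.02). Without the first fish oil array, 5 of 7 were below 0 (median -0.36). The comparisons with chow share the same 2 chow arrays, so their directions are not independent of each other.

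The number of members whose arrays did not overlap between the groups was 2 of 7 for fish oil against chow (36.6% of all tested probe sets), 1 for lard (39.7%), 3 for olive oil (38%) and 0 for coconut fat (36.3%). It was 0 for fish oil against the other 3 high-fat diets (12.8%), 3 for coconut fat against olive oil (36.3%) and 2 for olive oil against lard (34.6%). These shares are near the background of the array or below it.

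The diets rich in saturated and in monounsaturated fat were set against each other because Scd turns one kind of fatty acid into the other. Coconut fat against olive oil gave log2 fold changes of -0.31 for Scd (95% interval -2.11 to 1.48), -0.7 for Fads1 (-2.14 to 0.75, limma adjusted p = 0.891) and -0.48 for Fads2 (-1.16 to 0.21, limma adjusted p = 0.828). The 3 genes are those whose arrays did not overlap here, each with both olive oil arrays above both coconut fat arrays. Olive oil against lard gave 0.64 for Scd (-1.16 to 2.43) and 0.51 for Elovl2, again without overlap, and neither passed the threshold. For coconut fat against the mean of lard and olive oil the values were 0 for Scd, -0.59 for Fads1 (-1.84 to 0.66, limma adjusted p = 0.881) and -0.35 for Fads2.

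Over the 10 arrays, 15 pairs of member genes were compared by correlation of their log2 signals (100000 permutations, two-sided, Benjamini-Hochberg adjusted over the pairs, with the brighter Elovl5 probe set). The permutations treat the arrays as exchangeable, although they come in pairs of 1 diet. Fads1 and Elovl5, enzymes of consecutive steps, had the highest correlation, with Pearson's r = 0.88 (permutation p = 0.00042, adjusted 0.0063), Spearman's rho = 0.84 (permutation p = 0.0038, adjusted 0.057), and r = 0.76 without the 2 arrays farthest from the median of Fads1, the first chow and the second olive oil array. Scd and Fads1 correlated at r = 0.84 (permutation p = 0.0202, adjusted 0.101) with rho = 0.49 (permutation p = 0.153, adjusted 0.389). Without the first chow and the first fish oil array, r was 0.04, so the relation rested on those arrays. Scd and Fads2 had r = 0.77 (permutation p = 0.0393, adjusted 0.118) with rho = 0.53 (permutation p = 0.121, adjusted 0.389), and r = 0.16 without the same arrays. Fads1 and Fads2 had r = 0.84 (permutation p = 0.0131, adjusted 0.0983), rho = 0.62 (permutation p = 0.0612, adjusted 0.389) and r = 0.32 without the first chow and the second olive oil array. The other 11 pairs had adjusted p-values of 0.118 or above.

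The promoters of Fads1, Fads2 and Elovl5 are shown because these are consecutive enzymes and include the pair with the highest correlation. The sequences are from RefSeq on build GRCr8, read on the strand of the gene, and hold those of the 250 bases before the annotated start that lie outside the annotated span of the gene. All 6 members were in the promoter table, and the bases before Scd and Elovl1 lie inside their annotated spans and are not shown. Capitals mark CCAAT, the box bound by NF-Y (ATTGG on the other strand), and CACGTG, the E-box form that SREBP-1 and ChREBP can bind. The windows are chr1:216252442-216252604 (plus strand) for Fads1, chr1:216172191-216172283 (minus strand) for Fads2 and chr8:87670914-87671163 (plus strand) for Elovl5.
Fads1: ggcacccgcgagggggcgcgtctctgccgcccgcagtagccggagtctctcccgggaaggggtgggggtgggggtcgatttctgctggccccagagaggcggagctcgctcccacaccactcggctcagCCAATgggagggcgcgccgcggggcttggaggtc
Fads2: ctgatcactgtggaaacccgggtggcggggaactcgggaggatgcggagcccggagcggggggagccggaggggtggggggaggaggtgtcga
Elovl5: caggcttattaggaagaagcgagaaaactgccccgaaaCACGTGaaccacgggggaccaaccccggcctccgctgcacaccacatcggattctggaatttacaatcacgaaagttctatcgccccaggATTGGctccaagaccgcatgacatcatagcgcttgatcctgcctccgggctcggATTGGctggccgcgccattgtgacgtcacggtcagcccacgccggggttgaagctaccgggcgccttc

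Searched on both strands of windows from 250 bases before to 50 after the start, CCAAT was found in Fads1, 121 bases before the start, and in Elovl5, 122 and 68 bases before it. It occurs in 37.7% of the 27457 promoters of the table. CACGTG was found in Elovl5 alone among the 6 windows, 212 bases before the start, and occurs in 6.7% of promoters. A GC box (GGGCGG, 34.9% of promoters) was present in Fads1, Fads2 and Elovl2, and a sterol regulatory element of the letters TCACNCCAC (1.1%) in 0 of the 6 windows. For Scd and Elovl1 the 250 bases before the start used lie inside the annotated gene. The bases upstream of these genes were thus not searched, and the absence of a motif does not extend to them. The motif sites found in these windows do not overlap one another. In the same annotation, Fads2 and Fads1 lie close together on chromosome 1 with 2 annotated genes between them, a long noncoding RNA and a pseudogene, and Fads3 is the neighbour of Fads2 on the other side with 0 genes between.

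**Figure D3:**
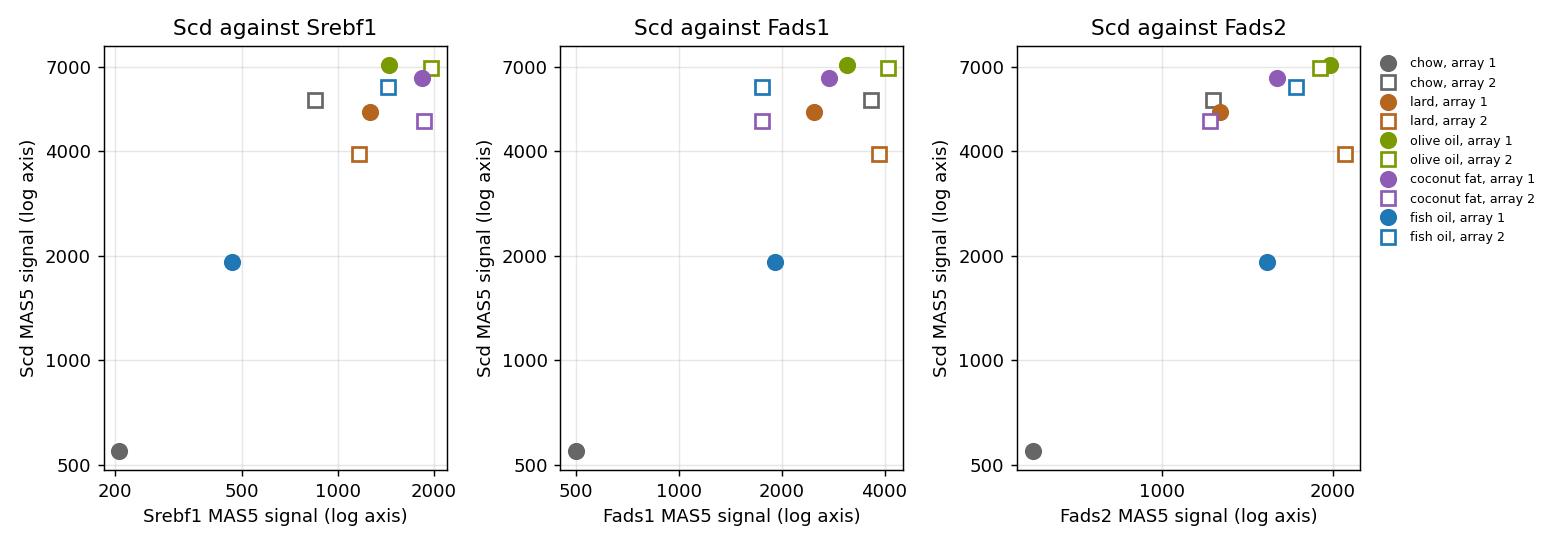
Scd signal against the signal of Srebf1, Fads1 and Fads2 on each of the 10 arrays, all on log axes, coloured by diet with filled circles for array 1 and open squares for array 2. The first chow array is lowest for all 4 genes, and the first fish oil array is second lowest for Scd (1924.3) and Srebf1 (464.8) but among the others for Fads2 (1532).

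Genes of fatty acid synthesis were examined beside the members, as a list of 12 known SREBP-1 targets without the members, of which 11 were on the array annotation and all 11 were tested. All 11 were lower on the first than on the second chow array, with a median log2 difference of -1.78, against 47.2% of all tested probe sets and a median of 0.02. Fasn, fatty acid synthase, had 105.8 and 1096.8 on the chow arrays, and Thrsp, a lipogenic cofactor, had 508.3 and 4907.8. Srebf1 itself, the gene of SREBP-1, had 206.3 and 847.6. Among the member probe sets 6 of 7 were lower on the first chow array, with log2 differences of -3.35 for Scd, -2.86 for Fads1, -1.05 for Fads2 and -0.84 and -1.29 for Elovl5. Only Elovl1, at 0.2, was higher on it, and Elovl2, at -0.11, was nearly level.

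With fish oil, 10 of the 11 targets were likewise lower on the first array, with a median of -1.1, and the members divided. Scd followed the targets at -1.67, and Elovl2 went the other way at 1.52. Fads1 (0.13) and Fads2 (-0.17) differed little: 75% and 68.3% of all tested probe sets differed as much between the 2 fish oil arrays, against 2.86% for Scd. Fasn had 59.6 and 753.4 on these arrays, Thrsp 861 and 3812.8, and Srebf1 464.8 and 1436.2. With olive oil, 10 of 11 targets were lower on the first array (median -1.21) while Scd was level at 0.03, and with coconut fat 0 of 11 were lower (0.82). Hepatocyte markers, by contrast, had medians of -0.06 between the chow arrays and -0.14 between the fish oil arrays.

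**Figure D4:**
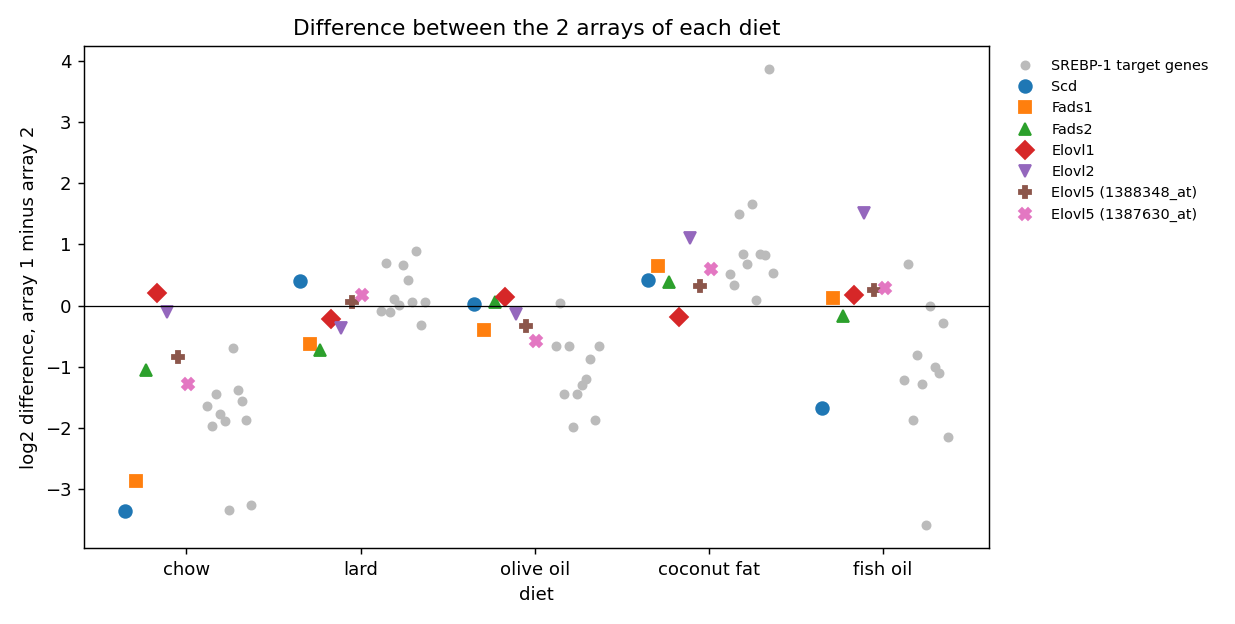
Log2 difference between array 1 and array 2 of each diet, for the 7 member probe sets and for the 11 other SREBP-1 target genes, with 1 point per gene and a line at 0. With chow all 11 targets and 6 of 7 members are below 0, down to -3.35 for Scd, and with fish oil Scd is at -1.67 while Fads1 (0.13) and Fads2 (-0.17) are near 0.

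Between diets, 0 of the 11 SREBP-1 targets passed the threshold in any comparison. With olive oil against chow, 11 of 11 were above 0 with a median log2 fold change of 1.79, and the values of Pnpla3, a lipid droplet lipase, and Fasn were 5.08 and 2.73. One of the 2 chow signals behind the first of these, 11.2, was under the bound of 12.8 (the highest signal of control probe sets for bacterial RNA), and without that array the values were 4.15 and 1.06. Fish oil against chow gave 5 above and 6 below 0 (median -0.06), and 1 above and 10 below (median -1.08) without the first chow array. Against the other high-fat diets, 10 of 11 were below 0 with fish oil (median -1.16), Pnpla3 at -2.99 and Fasn at -2.41. The median for olive oil against chow was 0.96 without the first chow array, with 11 of 11 above 0. For the mean of the high-fat diets against chow it changed from 1.09 with 11 above 0 to -0.15 with 4 above 0. Without the first fish oil array, the median for fish oil against the other diets was -0.54, with 10 of 11 below 0, Pnpla3 at -2.85 and Fasn at -0.62.

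Among 14 regulators of these genes, all on the array and tested, 0 passed in any comparison with all arrays. Srebf1 had the largest fold change for the mean of the high-fat diets against chow, at 1.65 on the log2 scale (unadjusted p = 0.00391, limma adjusted p = 0.406). Without the first chow array it was 0.64, below the 2.82 of Ppara. Its signals were 1263.6 and 1162.2 with lard, 1440.8 and 1959 with olive oil, and 1836.1 and 1854.2 with coconut fat, all above the chow arrays and the first fish oil array. Insig1, which holds SREBP in the endoplasmic reticulum and is itself induced by it, had a log2 fold change of -1.46 with fish oil against the other high-fat diets, from signals of 224.2 and 1406.9. This was -0.14 without the first fish oil array, and -2.77 without the second, where it passed the threshold (limma adjusted p = 0.0417). Ppara, the receptor for fatty acids that drives their oxidation, read 41.6 and 3.2 with chow and 104.1 and 32.3 with fish oil, and the lower chow value was under the bound of 12.8.

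Of 10 other desaturases and elongases, 6 were on the array annotation, 4 were tested, and 0 passed in any comparison. Fads3, the third member of the Fads cluster, was at 53 and 63.4 with chow and lower on all high-fat arrays, between 5.4 and 31.4 with some of them under the bound of 12.8, with a log2 fold change for their mean of -1.73 (SE 0.52, limma adjusted p = 0.461). Its neighbours Fads1 and Fads2 had positive values in the same comparison, at 0.93 each, which became -0.5 and 0.41 without the first chow array. Fads3 was at -1.86 without it. Scd2, the close paralogue of Scd, had 95.1 and 106.3 with fish oil and 46.6 to 81.6 with the other high-fat diets, 0.76 on the log2 scale (limma adjusted p = 0.213), but its other tested probe set, 1386889_at, had 42.3 and 40.3 against 33.6 to 46.4, or 0.1 on that scale. Whether the probe sets of Scd and Scd2 bind each other's transcript was not tested. Elovl6, which elongates palmitate and so supplies Scd, read 124.2 and 499.1 with olive oil against 20.1 and 82.9 with chow, a log2 fold change of 2.5, and of 1.56 without the first chow array.

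No listed partner enzyme of elongation or desaturation, and no listed acyl-CoA synthetase or acyltransferase, passed the threshold on its brightest probe set. Among 11 partners, the reductases and dehydratases of the elongation cycle and the cytochrome b5 system that feeds electrons to desaturases, 9 were on the annotation, 8 were tested and 0 passed. Hacd1, a dehydratase of the elongation cycle, had 0.63 with fish oil against chow, and Cyb5a, cytochrome b5, had 0.42 with fish oil against the other diets. Hacd3 went the other way. Its brightest probe set read 731.5 and 756.8 with chow and 490.2 and 445.3 with lard. All high-fat arrays, up to 686.1, were below both chow arrays, also on its other tested probe set. For the mean of the high-fat diets against chow, 5 tested partners were above 0 and 3 below. Among 13 acyl-CoA synthetases and acyltransferases, 11 were on the annotation and 9 tested, and on the brightest probe set of each gene 0 passed. One dimmer probe set of Agpat3, a lysophospholipid acyltransferase, fell with fish oil against the other diets (limma adjusted p = 0.0404). Both fish oil arrays were there below the bound of 12.8, so no fold is given, and without the first or the second of them the adjusted p was 0.124 and 0.164. The brightest Agpat3 probe set gave -0.15. Lpcat3, which places polyunsaturated chains into phospholipids, had 0.82 with olive oil against chow.

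The last step to docosahexaenoic acid is a shortening in peroxisomes, and 5 of its 8 listed genes were on the annotation and 4 tested. One of them rose with fish oil: Ehhadh, the peroxisomal bifunctional enzyme and a classic target of PPAR-alpha, read 7370 and 6385.6 with fish oil and 1735.6 to 3318.5 on the other 8 arrays. Its log2 fold change was 1.52 against chow (SE 0.16, limma adjusted p = 0.00364) and 1.48 against the other high-fat diets (adjusted p = 0.000821). Without the second chow array, the adjusted p against chow was 0.0627. Unlike Scd, it differed little between the 2 fish oil arrays. Hsd17b4, the second bifunctional enzyme, had 0.42 against the other high-fat diets (limma adjusted p = 0.223).

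For each member, the 3 genes with the most similar pattern over the 10 arrays were taken by Pearson's r of log2 signals, as a description with no test. Scd was closest to Thrsp (r = 0.95, and 0.72 without the first chow and first fish oil arrays), Srebf1 (0.94, and 0.39) and Bhmt2 (0.93, and 0.58). Fads1 was closest to Gal3st1 (0.96, and 0.96 without its 2 farthest arrays), Zswim7 (0.96, and 0.87 likewise) and Rimbp2 (0.92, and 0.66). Fads2 was closest to Pik3r4 (0.98, and 0.94 likewise), Spryd3 (0.95, and 0.91) and Ptpn18 (0.94, and 0.79). Elovl5 was closest to Qng1 (0.92, and 0.73 without the first chow and second fish oil arrays), Bclaf1 (0.9, and 0.72) and Gimap4 (0.9, and 0.7). Elovl2 was closest to Senp2 (0.93, and 0.88 without its 2 farthest arrays), Dph6 (0.93, and 0.82) and Ddx27 (0.9, and 0.93). For Elovl1 these were Etnk1 (0.97, and 0.98 likewise), Scyl3 (0.94, and 0.91) and Efr3a (0.92, and 0.81). With 10 arrays and 18625 probe sets, correlations of this size are to be found for many probe sets.

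The labelled tissue was borne out by 9 hepatocyte markers on the array, whose summed signal was 69580 to 77770 on the 10 arrays. Adipocyte markers (5 on the array) summed to 115.3 to 210. For 7 macrophage markers the sum was 2102 to 2169 with fish oil and 3128 to 3764 with chow. It was 2330 to 2672 with coconut fat, 2606 to 2871 with lard and 2788 to 3595 with olive oil. Against chow, 6 of the 7 had fold changes below 0 with fish oil and with coconut fat, 4 with lard and 3 with olive oil. For 4 markers of pancreas the sum was 329.1 to 361 with fish oil and 88.9 to 193.4 with chow. Only 2 of them were tested, and with fish oil against chow 1 was above and 1 below 0. One macrophage-list marker passed the threshold: Cd74, a chaperone of MHC class II molecules that B cells also express, fell with fish oil against chow by 1.2 on the log2 scale, from 929.6 and 1274.7 to 425.2 and 523.6 (limma adjusted p = 0.045). It did not pass without the second chow array (0.249) or without the first (0.0901) or second (0.208) fish oil array. Cd79b of B cells and Myh4 of muscle were under the bound of 12.8 on all arrays. The part of the macrophage and pancreas markers in the values of the members was not tested. In whole liver, fewer cells of a type and less RNA per cell cannot be told apart.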

How the data were processed

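The authors deposited a linear signal intensity per probe set from MAS5 (named, without a version, in the submitters' processing notes). Every array had a 2% trimmed mean of 100, so no scaling was added. Of 31099 probe sets, 57 controls were removed. Values were turned into log2(signal + 3.1), the 10th percentile, and the 40% with the lowest mean (a signal of about 17.8) were left out. A model with 1 mean for each diet was fitted across all 18625 tested probe sets of the 10 arrays with limma 3.58.1 in R 4.3.3 (empirical Bayes with an intensity trend, 5 residual and 5.96 prior degrees of freedom). The 9 comparisons and the F-test were adjusted by Benjamini-Hochberg at 0.05. The number of arrays limits the precision. Symbols came from the platform annotation: 20826 probe sets had 1, 436 several and 9780 none. A signal at or under 12.8, the highest of the bacterial trp controls, was called under the bound. All members were named. Genes most like a member were the 3 with the highest r. List genes were named if they passed, or else 2 with large fold changes, not always the most extreme over all comparisons. Others (such as Srebf1, Thrsp, Scd2, Hacd3 and Ppara) were named after their values were seen. The members and lists were chosen with earlier results of these data known. The fit was tested on simulated data. Alternatives were quantile normalization, a 75th percentile shift, an offset at the 25th percentile, no dim filter, no intensity trend, the replicate number as a block and each array left out; list counts, member directions and named list genes without single chow and fish oil arrays were added after the data were seen. Scanner files were not used here.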

Additional observations from a re-analysis of the deposited data

How the results depend on the processing

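The count of members called was 0 in all 9 comparisons and the F-test under each of the 6 other settings. Leaving out 1 array gave 0 to 2 for olive oil and for the mean of the high-fat diets against chow, and 0 to 1 for the F-test, the higher counts without the second chow array (Scd and Fads1 for olive oil and for the mean); the other comparisons stayed at 0. Of the 63 member fold changes, 38 changed sign when 1 array was left out and 7 under another setting, each of these 7 within 0.03 of 0 as reported. They became -0.02 (Elovl5, 1387630_at, fish oil against chow), -0.07 (Scd, coconut fat against lard and olive oil), -0.04 (Elovl5, 1387630_at, coconut fat against olive oil) and -0.01 (Elovl1, olive oil against lard) with quantile normalization, and -0.06 (Elovl2, lard against chow), 0.04 (Fads2, fish oil against the others) and 0.06 (Elovl5, 1387630_at, coconut fat against lard and olive oil) with the 75th percentile shift. The cause was not tested.

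Log2 fold changes that changed sign had these lowest and highest values with 1 array left out. For fish oil against chow they were Scd -0.71 and 2.64, Fads1 -1 and 1.86, Elovl2 -0.25 and 1.27, and Elovl5 -0.51 and 0.33 and, on 1387630_at, -0.64 and 0.65. For lard they were Scd -0.32 and 3.03, Fads1 -0.24 and 2.62, Elovl1 -0.16 and 0.06, Elovl2 -0.18 and 0.19, and Elovl5 -0.23 and 0.61 and -0.38 and 0.9. For olive oil they were Fads1 -0.03 and 2.83, Elovl1 -0.15 and 0.05, and Elovl5 -0.18 and 0.66 and -0.46 and 0.83. For coconut fat they were Fads1 -0.73 and 2.13, Elovl2 -0.45 and 0.66, and Elovl5 -0.3 and 0.53 and -0.43 and 0.85. For the mean of the high-fat diets they were Scd -0.17 and 3.17, Fads1 -0.5 and 2.36, and Elovl5 -0.31 and 0.53 and -0.48 and 0.81. For fish oil against the others they were Scd -1.55 and 0.12, Fads2 -0.13 and 0.11, and Elovl2 -0.45 and 1.07. For coconut fat against lard and olive oil they were Scd -0.2 and 0.21, Elovl2 -0.71 and 0.4, and Elovl5 -0.26 and 0.06 and -0.31 and 0.29; against olive oil alone, Elovl2 -0.96 and 0.14, and Elovl5 -0.3 and 0.05 and -0.27 and 0.33. For olive oil against lard they were Fads1 -0.11 and 0.52, Fads2 -0.11 and 0.62, Elovl1 -0.11 and 0.11, and Elovl5 -0.12 and 0.23 and -0.36 and 0.22.

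Over all tested probe sets, no pairing of the arrays by replicate number was seen: deviations of same-numbered arrays correlated at -0.03 to 0.08 over 10 pairs of diets. A pairing limited to few genes would not show in these values. With the replicate block 0 members were called in any comparison. Over the whole array the number of probe sets called moved more: without an intensity trend it was 7 in place of 29 for fish oil against chow, 1 in place of 3 for lard, 0 in place of 5 for olive oil, 0 in place of 7 for the mean of the high-fat diets, 6 in place of 79 for fish oil against the others, 0 in place of 2 for coconut fat against olive oil and 1 in place of 26 for the F-test. It was 0 for lard with quantile normalization and with the block, 11 for olive oil with no dim filter, and 1 for coconut fat against olive oil with the 25th percentile offset and with no dim filter. With 1 array left out, it ranged from 5 (without the second chow array) to 41 for fish oil against chow, 0 to 6 for lard, 3 to 22 for olive oil (the latter without the second chow array), 0 to 3 for coconut fat, 1 to 11 for the mean of the high-fat diets, 31 (without the first lard array) to 113 for fish oil against the others, 0 to 1 for coconut fat against lard and olive oil, 0 to 2 against olive oil alone, 0 to 4 for olive oil against lard and 10 to 36 for the F-test.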
